A study of Mus musculus with 12 samples.

Results

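The genes described here are 10 genes of fatty acid synthesis and desaturation: the regulators Srebf1 and Thrsp, the precursor and cofactor enzymes Acly and Me1, the acetyl-CoA carboxylases Acaca and Acacb, the fatty acid synthase Fasn, the elongase Elovl6 and the desaturases Scd1 and Scd2. They were chosen by symbol from a table of 24528 genes, and all 10 were found and passed the filter on low values. These genes and the gene lists used below were chosen with earlier results of these data known. RNA was taken from bulk gastrocnemius, a calf muscle, of male mice aged 4 months. The 6 WT mice carried floxed Ank2 alleles (Ank2f/f) and no Cre. The 6 KO mice were Ank2f/f; HSA-Cre+, so floxed alleles were present in both groups and Cre in KO alone. HSA-Cre is in common use to express Cre in skeletal muscle fibres, and it is not expected to delete Ank2 in the vessels, nerves, fat and connective cells of the same tissue. Per the labels, control mice were littermates kept in the same cages as KO mice. The question is how transcripts of this pathway stand in muscle designed to lack ankyrin-B, the Ank2 product, which anchors membrane proteins to spectrin.

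De novo lipogenesis builds fatty acids from acetyl-CoA. ATP citrate lyase makes cytosolic acetyl-CoA from citrate, acetyl-CoA carboxylase turns it into malonyl-CoA, fatty acid synthase condenses these units into palmitate with NADPH as the reductant, and elongases and desaturases then lengthen palmitate and add a double bond. SREBP-1, the product of Srebf1, is the transcription factor best known for inducing these enzymes in liver and fat. In muscle fibres, malonyl-CoA is known mainly as an inhibitor of fatty acid entry into mitochondria, and the carboxylase of the mitochondrial surface, ACC2 (Acacb), is the main muscle form. Adipocytes between the fibres express many of the same genes at high levels, and myelinating Schwann cells also make fatty acids.

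The paralogs Scd1 and Scd2 lie near each other on chromosome 19, Scd1 on the minus strand from 44394455 to 44407879 and Scd2 on the plus strand from 44293674 to 44306864 (mm10, GENCODE M21). Their coding sequences were identical at 90.3% of 1065 aligned bases. The longest identical run was 147 bases, and it is shown with 20 bases on each side because reads from it cannot be assigned to 1 of the 2 genes. Capitals mark bases that differ between the genes, positions are counted from the A of the start codon, and the Scd1 stretch covers coding bases 503 to 689 and the Scd2 stretch 512 to 698.
Scd1: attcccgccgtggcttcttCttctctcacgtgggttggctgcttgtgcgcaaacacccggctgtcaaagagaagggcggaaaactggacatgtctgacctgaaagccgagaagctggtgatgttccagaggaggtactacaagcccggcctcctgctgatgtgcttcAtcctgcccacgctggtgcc
Scd2: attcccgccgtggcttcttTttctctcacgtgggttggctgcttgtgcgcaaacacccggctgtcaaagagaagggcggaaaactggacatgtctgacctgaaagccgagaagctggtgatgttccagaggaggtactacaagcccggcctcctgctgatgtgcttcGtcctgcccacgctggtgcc
Coding sequence made up 22.0% of the Scd1 transcript of 4832 bases and 19.7% of the Scd2 transcript of 5455 bases, and only coding sequence was compared. How shared reads were divided is not given in the sources used here. The carboxylase paralogs Acaca (chromosome 11, 84129672 to 84401651, plus strand) and Acacb (chromosome 5, 114146535 to 114250761, plus strand) were less alike, with 72.3% of 6908 aligned coding bases identical and a longest identical run of 29 bases.

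The deposited values are on a log2 scale with a shared floor of 5.57, and differences between low values are compressed on it. Scaled reads, obtained by inverting that scale, are given relative to the WT mean of a gene, and estimated reads are given per library. A library held between 12360075 and 18732697 estimated reads, on average 14111626 ± 1745864 for WT and 16219710 ± 1766696 for KO (SD over 6 mice; exact two-sided permutation p = 0.0671). Ank2 separated the groups in all libraries. Its deposited log2 values spanned 8.40 to 9.22 for WT and 7.54 to 8.03 for KO, and the KO level in scaled reads was 33.1% ± 7.12 of the WT mean (SD, n = 6; limma adjusted p = 0.000879). The 5 fibre genes used to check the tissue (Acta1, Ckm, Ttn, Des and Mb) summed to 1116470 to 1438080 scaled reads in WT and 1150620 to 1318220 in KO. Across the 12216 tested genes, 753 were called at a limma adjusted p at or under 0.05, 379 higher and 374 lower in KO, and this number was 194 without KO 6 and 1515 without KO 2. Of the 10 lipogenic genes, 7 overlap the span of another annotated gene, introns included (all but Scd1, Fasn and Thrsp). For Scd2 and Acly that gene is a microRNA gene (Mir5114 and Mir7116). The protocols in the labels describe no step that marks strand, so where exons overlap reads may come from either gene. Overlap of exons was not examined.

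Of the 10 lipogenic genes, Scd1 passed the test and fell in KO, to a mean of 50.4% ± 15.2 of the WT level in scaled reads (SD, n = 6). The share of 1 in 10 stands beside 6.16% of all tested genes, and by direction 1 in 10 was lower beside 3.06% and 0 were higher beside 3.1%. Another 4 genes, Me1, Fasn, Acacb and Acaca, had negative estimates with an unadjusted p at or under 0.05 and did not pass after adjustment (limma adjusted p from 0.0621 to 0.117). Such lower estimates, Scd1 included, made up 5 of 10 genes, against 14.1% of all tested genes, and no gene of the set was higher at that level (26% of all tested genes in either direction). Because the set was chosen with earlier results of these data known, these shares describe it and are not an independent test. Srebf1 and Acly gave estimates near 0, and Scd2, Thrsp and Elovl6 gave positive estimates that did not pass. The median change of the 10 genes was -0.11 on the deposited log2 scale, against -0.01 for all tested genes, and 7 of the 10 estimates were negative, against 52.4% of all tested genes. The ranges of the groups overlapped in all 10. Over all tested genes, 1.2% had every KO library below every WT library and 1.26% had every KO library above.

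**Figure D1:**
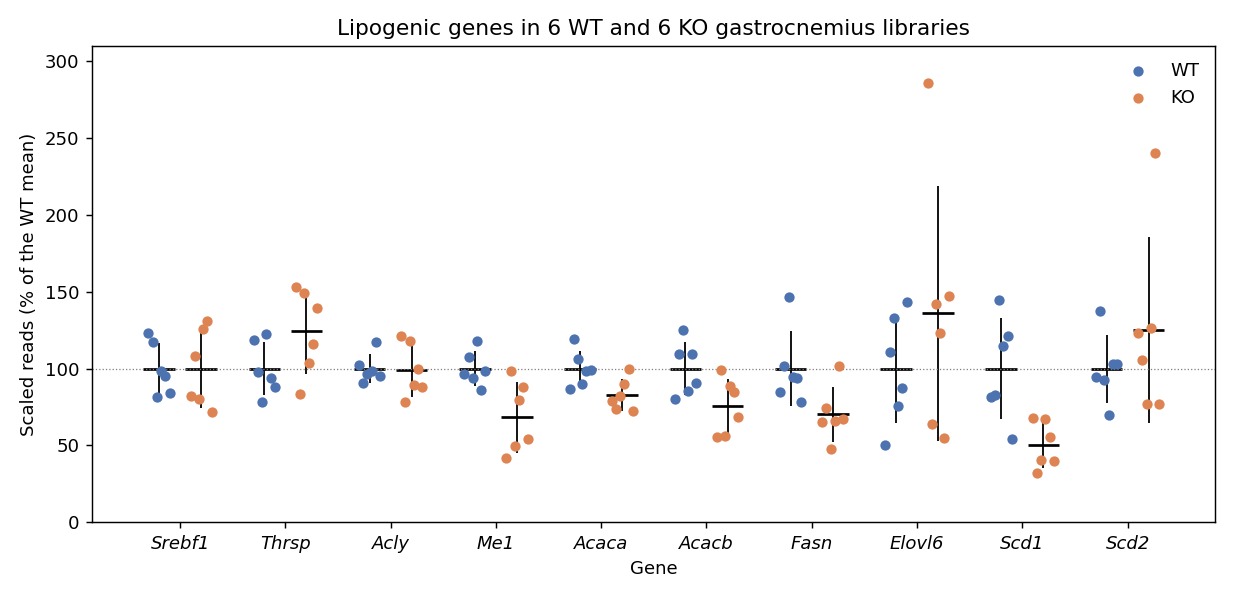
Scaled reads of each gene as a percent of its WT mean (y axis, linear) for the 6 WT (blue) and 6 KO (orange) libraries; bars give the mean and SD of each group. Scd1 has its KO libraries between 31.9% and 67.5%, and the high single KO values belong to Elovl6 in KO 1 (286%) and Scd2 in KO 5 (240%).

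**Figure D2:**
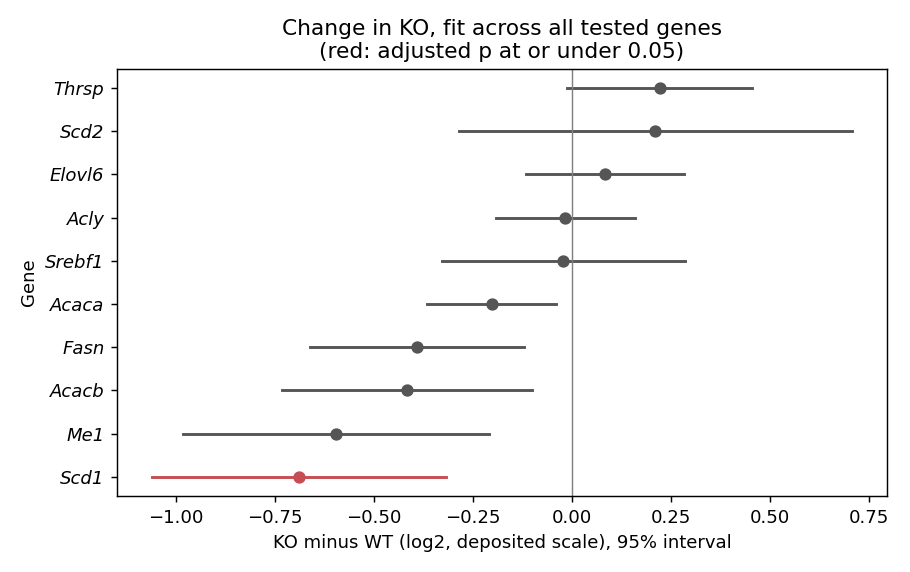
KO minus WT for each gene on the deposited log2 scale (points) with the 95% interval of the fit across all tested genes (lines), ordered by size. Scd1, in red, is the gene with an adjusted p at or under 0.05, and the intervals of Me1, Acacb, Fasn and Acaca also lie below 0 before adjustment over all genes.

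Srebf1, the gene of SREBP-1, gave an estimate near 0. Its position is chromosome 11, 60199089 to 60222581, minus strand. Its deposited log2 value had a lowest, median and highest of 10.38, 10.62 and 10.94 in WT and of 10.21, 10.57 and 11.03 in KO. KO libraries lay on both sides, with KO 4 and KO 5 above every WT library and KO 3 and KO 6 below every WT library. The change was -0.02 (SE 0.15, 95% interval -0.33 to 0.29, limma adjusted p = 0.942). Its sign turned with quantile normalization (0.05) and without any 1 of WT 1, WT 2, KO 1, KO 3 and KO 6 (0.02 to 0.06). The files hold 1 value per gene, so the SREBP-1a and SREBP-1c transcripts were not separated.

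Thrsp encodes Spot 14, a small protein that is strongly induced by thyroid hormone and carbohydrate feeding in lipogenic tissues. It lies on chromosome 7 from 97412938 to 97417730, minus strand. WT libraries had deposited values of 7.93, 8.13 and 8.39 (lowest, median, highest) and KO libraries 7.99, 8.43 and 8.64. KO 1, KO 3 and KO 6 stood above every WT library, whereas KO 2 was near the low end of the WT range. The change was 0.22 (SE 0.11, 95% interval -0.01 to 0.46, limma adjusted p = 0.216), and it was 0.30 (limma adjusted p = 0.0585) without KO 2. Without KO 1 it was 0.17 (limma adjusted p = 0.405).

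The enzymes that supply acetyl-CoA and NADPH gave different values. Acly, the gene of ATP citrate lyase (chromosome 11, 100476353 to 100528000, minus strand), had deposited values of 8.20, 8.28 and 8.47 in WT and of 8.05, 8.24 and 8.51 in KO. The KO libraries spread to both sides of the WT range, and the change was -0.02 (SE 0.08, 95% interval -0.19 to 0.16, limma adjusted p = 0.922). It turned positive without any 1 of WT 5, KO 2, KO 4 and KO 6 (at most 0.03). Me1 encodes the cytosolic malic enzyme, which makes NADPH from malate, and lies on chromosome 9 from 86581371 to 86695953, minus strand. Its deposited values were 12.25, 12.42 and 12.69 in WT and 11.23, 11.86 and 12.44 in KO. KO 1, KO 3, KO 4 and KO 6 were below every WT library, at 41.5%, 49.9%, 79.3% and 53.9% of the WT mean in scaled reads. KO 2, at 98.2%, and KO 5, at 87.8%, were within the WT range of 86.0% to 118%. The change was -0.60 (SE 0.18, limma adjusted p = 0.0621). The same gene passed without KO 2 (-0.71, limma adjusted p = 0.0113) or without KO 5 (-0.68, limma adjusted p = 0.04). No other single omission made Me1 pass, and its limma adjusted p reached 0.137 without KO 6. Leaving out KO 2 also raised the number called over all tested genes from 753 to 1515.

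Both acetyl-CoA carboxylase genes had lower means in KO without passing the test. Acacb, the gene of ACC2, had deposited values of 12.26, 12.57 and 12.90 in WT and of 11.75, 12.19 and 12.57 in KO. KO 1, KO 3 and KO 6 lay below every WT library, and KO 2 lay at 99.0% of the WT mean in scaled reads. The change was -0.42 (SE 0.15, limma adjusted p = 0.0987), and it passed without KO 2 (-0.50, limma adjusted p = 0.0326). No other single omission made Acacb pass, and its limma adjusted p reached 0.213 without WT 3. Acaca, the gene of ACC1, which supplies malonyl-CoA to fatty acid synthase, had deposited values of 8.31, 8.46 and 8.66 in WT and of 8.13, 8.23 and 8.47 in KO. Here KO 2 was among the 4 KO libraries below every WT library, with KO 1, KO 3 and KO 6. The change was -0.20 (SE 0.08, limma adjusted p = 0.117).

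Acaca stood at few reads beside Acacb in both groups. Scaled reads of Acaca were between 3.72% and 4.82% of those of Acacb in WT libraries and between 3.28% and 6.43% in KO libraries. The log2 ratio was -4.50 ± 0.16 for WT and -4.34 ± 0.36 for KO (SD over 6 libraries; difference 0.15, exact two-sided permutation p = 0.355, the same after adjustment over the 2 paralog ratios tested).

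Fasn, the gene of fatty acid synthase (chromosome 11, 120805846 to 120824547, minus strand), was lower in 5 of 6 KO libraries than in every WT library. Its deposited values were 8.41, 8.62 and 9.14 in WT and 7.90, 8.24 and 8.70 in KO. The KO library inside the WT range was KO 5, close to the WT mean in scaled reads, and the highest WT library was WT 3, at 147%. The change was -0.39 (SE 0.13, limma adjusted p = 0.0743). Without KO 5 it passed (-0.48, limma adjusted p = 0.0293). No other single omission made Fasn pass, and its limma adjusted p reached 0.159 without KO 3. Elovl6, the elongase that takes palmitate to stearate (chromosome 3, 129532355 to 129638495, plus strand), was barely detected, with 3.99 to 30.9 estimated reads per library. Its deposited values were 6.01, 6.19 and 6.32 in WT and 6.03, 6.29 and 6.61 in KO. KO 1 was the highest, and the change of 0.08 (SE 0.09, limma adjusted p = 0.599) was 0.02 without KO 1. No difference in Elovl6 was detectable at this depth.

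Scd1 and Scd2 encode stearoyl-CoA desaturases, which place the first double bond in palmitate and stearate. Scd1 had deposited values of 7.89, 8.51 and 8.95 in WT and of 7.42, 7.77 and 8.11 in KO, from 77.7 to 338 estimated reads per library. All 6 KO libraries lay below the WT median, and KO 2, KO 3 and KO 6 lay below every WT library. WT 6 was the lowest WT library, at 54.3% of the WT mean in scaled reads, and KO 2 was the lowest of all 12, at 31.9%. Thus KO 2, which stood within the WT range for Me1 and Acacb, did not do so for Scd1. The change was -0.69 (SE 0.17, 95% interval -1.06 to -0.32, limma adjusted p = 0.0364). The call held without WT 6, KO 2, KO 4 or KO 5 and was lost when any other single library was left out, where the change was -0.60 to -0.75 and the limma adjusted p was 0.0521 to 0.0899.

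Scd2 had deposited values of 8.96, 9.39 and 9.81 in WT and of 9.08, 9.57 and 10.55 in KO. KO 5 was the highest library, at 240% of the WT mean in scaled reads, and the other KO libraries lay between 76.6% and 127%, within the WT range of 69.6% to 138%. The change was 0.21 (SE 0.23, 95% interval -0.29 to 0.71, limma adjusted p = 0.59) and 0.02 without KO 5.

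The balance of the desaturase paralogs differed between the groups. Scaled reads of Scd1 were 25.3% to 79.0% of those of Scd2 in WT libraries and 11.1% to 26.3% in KO libraries. In WT, WT 4 and WT 3 had the highest ratios and WT 6 and WT 2 the lowest, and WT 6 (-1.98) lay below KO 1 (-1.93) and KO 4 (-1.98) and just above KO 3 (-1.99) and KO 6 (-2.02). The log2 ratio was -1.11 ± 0.69 for WT and -2.31 ± 0.53 for KO (SD over 6 libraries), a difference of -1.21 (exact two-sided permutation p = 0.00649, 0.013 after adjustment over the 2 ratios). All 6 KO libraries were below the WT median and 4 were below every WT library. Leaving out single libraries gave differences from -1.38 to -1.03, with exact permutation p from 0.00216 to 0.0195. A ratio within a library shows that the paralogs changed unequally and does not show which of them changed.

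**Figure D3:**
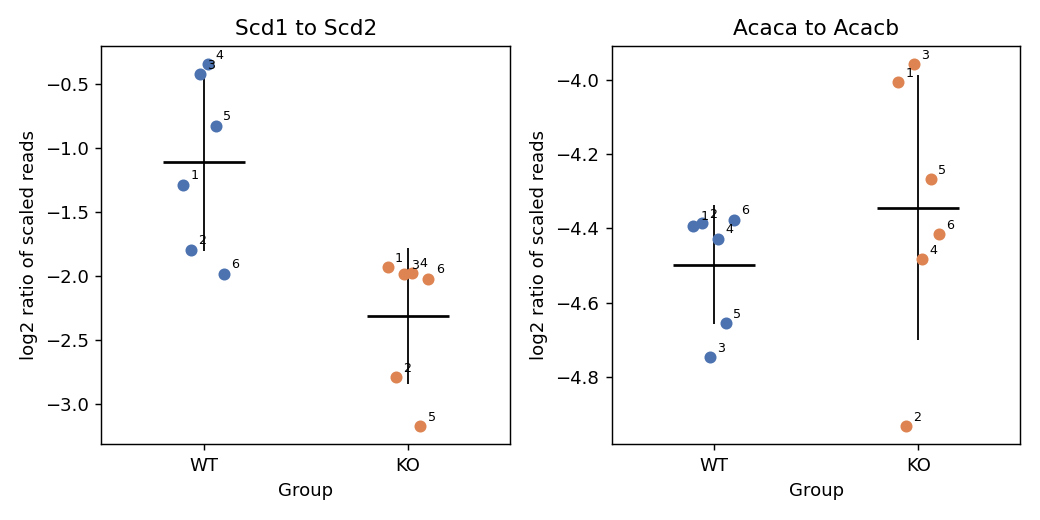
Log2 ratio of scaled reads of Scd1 to Scd2 (left) and of Acaca to Acacb (right) in each library, with replicate numbers, the mean and the SD of each group. The Scd1 to Scd2 ratios of KO libraries run from -3.18 to -1.93 and those of WT libraries from -1.98 to -0.34, while the Acaca to Acacb ratios of KO libraries, from -4.93 to -3.96, span those of WT.

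Transcripts that mark adipocytes most strictly were scarce, and most had lower means in KO. Of 13 adipocyte markers, 9 were tested. At an unadjusted limma p at or under 0.05, 3 of the 9 were lower, beside 14.1% of all tested genes. After adjustment 1 was called, beside 3.06% of all tested genes called lower. It was Adipoq, which encodes the hormone adiponectin and fell by 0.34 (limma adjusted p = 0.043). That call ended with libraries centred on the median and without any 1 of 7 libraries (KO 3, KO 4, KO 6 and all WT libraries but WT 4 and WT 6; limma adjusted p up to 0.107). Estimated reads of Adipoq were 11.0, 21.0, 20.1, 14.0, 19.0 and 6.01 in WT 1 to WT 6 and 14.0, 4.00, 3.01, 4.00, 8.03 and 4.99 in KO 1 to KO 6. WT 6, the lowest WT library for Scd1, was also the lowest WT library for Adipoq. WT 2, with 21.0 reads of Adipoq, had Scd1 at 83.1% of the WT mean in scaled reads. KO 4, with 4.00 reads of Adipoq, had Scd1 at 67.3%. These single libraries are examples, Adipoq rests on few reads in each, and its relation to Scd1 was not tested. Plin1, the perilipin of adipocyte lipid droplets, was too low to be tested. It had 5.99 to 16.9 estimated reads in WT and 0 to 3.98 in KO, so that every KO library was below every WT library. Retn, the resistin gene, had 2.97 to 14.2 reads in WT and 1.15 to 4.69 in KO, and Lep, the leptin gene, 0 to 9.90 and 0 to 4.98. Adrb3 was listed at 0 in 8 of 12 libraries. Cfd, the gene of the secreted protease adipsin, and Cidec, a lipid droplet gene, gave -0.58 (limma adjusted p = 0.104) and -0.27 (limma adjusted p = 0.159).

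Another 6 markers of the list, Plin4, Fabp4, Lipe, Aqp7, Cebpa and Pparg, had estimates between -0.06 and 0.11. The whole list summed to 4725 to 5649 scaled reads in WT and 4596 to 6452 in KO (exact permutation p = 0.688). Most of that sum came from Plin4 and Fabp4, which fibres and vessels also express, and their changes were 0.11 (limma adjusted p = 0.539) and 0.01 (limma adjusted p = 0.969). Pparg and Cebpa, transcription factor genes of adipocytes, gave -0.004 (limma adjusted p = 0.983) and 0.02 (limma adjusted p = 0.916), and Aqp7 and Lipe gave -0.06 (limma adjusted p = 0.596) and -0.04 (limma adjusted p = 0.803). The part of adipocyte RNA in the Scd1 result was not tested, and in bulk tissue fewer cells of a type and less RNA per cell cannot be told apart.

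**Figure D4:**
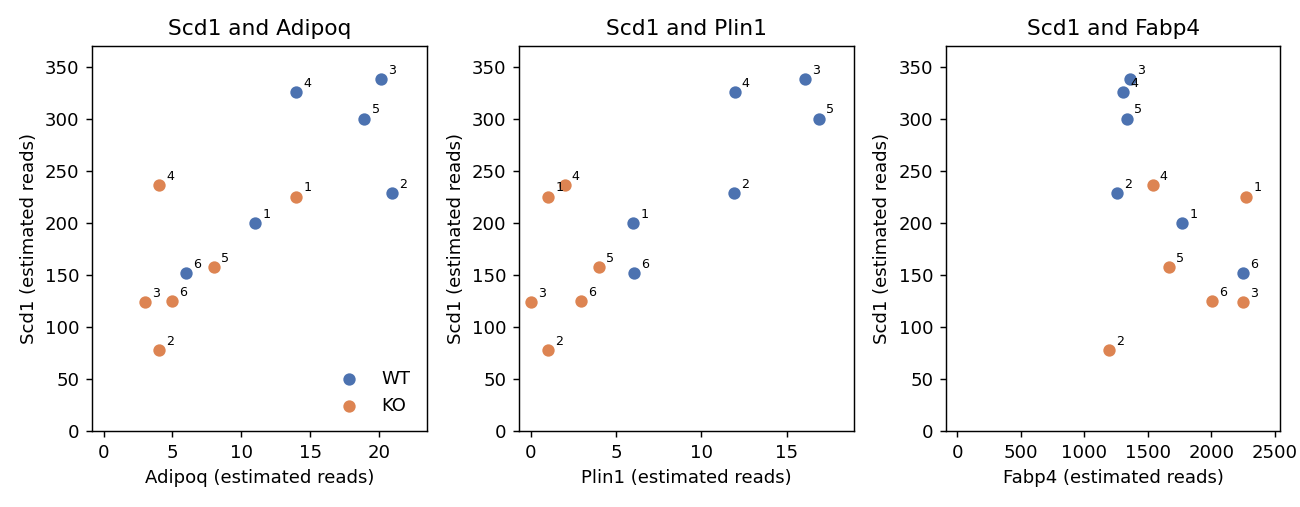
Estimated reads of Scd1 (y axis) against those of Adipoq, Plin1 and Fabp4 (x axes) in each library, WT in blue and KO in orange, with replicate numbers. Adipoq stays between 3.01 and 21.0 reads and Plin1 between 0 and 16.9, with KO libraries toward the low end, while Fabp4 runs from 1195 to 2272 reads with the groups mixed.

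Markers of other cells were also set beside the lipogenic genes. None of 10 Schwann cell markers was called by limma (0 at an unadjusted p at or under 0.05, beside 26% of all tested genes). Their sum spanned 1182 to 4051 scaled reads for WT and 552 to 7499 for KO. The highest sum was in KO 1, at 357% of the WT mean, whereas KO 5, the highest library for Scd2, stood at 81.4%. All 8 endothelial markers had negative estimates, 5 of them with an unadjusted limma p at or under 0.05, beside 14.1% of all tested genes lower at that level. Of the 8, 1 was called, beside 3.06% of all tested genes called lower. Flt1, which encodes a receptor for VEGF, fell by 0.50 (limma adjusted p = 0.0349), a call that was lost without 6 of the 12 libraries (WT 1, WT 2, WT 3, WT 5, KO 1 and KO 6). The endothelial sum was 4509 to 6252 scaled reads in WT and 3620 to 5401 in KO (exact permutation p = 0.0173). None of 8 slow-fibre markers was called. At an unadjusted limma p at or under 0.05, 6 of the 8 were lower, beside 14.1% of all tested genes. Their median change was -1.86, with sums of 6408 to 65996 scaled reads in WT and 1206 to 17181 in KO (exact permutation p = 0.0238). WT 6 had the highest slow-fibre sum, at 247% of the WT mean, and the lowest WT value of Scd1. KO 5 had the lowest slow-fibre sum, at 4.52%. Its Scd1 was at 55.6% of the WT mean in scaled reads, where the KO libraries spanned 31.9% to 67.5%. Slow-fibre sums and Scd1 were not compared over all libraries by a test. None of the 9 fast-fibre, 7 macrophage, 6 fibroblast and 5 muscle identity markers was called by limma. At an unadjusted p at or under 0.05 there were 2, 2, 0 and 0 of them, beside 26% of all tested genes in either direction. Both fast-fibre markers at that level were higher in KO, and the macrophage pair had opposite signs. The same permutation test was run on the sum of every marker and pathway list, and its p-values were not adjusted for the number of lists. The other marker sums gave p from 0.439 (macrophage) to 0.857 (fast fibre). Sums of the pathway lists below gave p from 0.039 (regulators of lipogenic transcription) to 0.556 (partners of fatty acid synthesis). The part of these cells and fibre types in the lipogenic values was not tested.

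Levels can be compared between genes only per length, here as scaled reads per kilobase of all annotated exons. In WT the order was Me1 (1440 ± 161), Acacb (626 ± 109), Srebf1 (270 ± 45.8), Scd2 (107 ± 23.7), Thrsp (92.3 ± 16.0), Scd1 (57.3 ± 18.8), Acly (43.2 ± 3.99), Fasn (29.5 ± 7.16), Acaca (15.5 ± 1.83) and Elovl6 (1.41 ± 0.50; SD, n = 6 each). The ranges of Scd2 and Thrsp overlapped, as did those of Thrsp and Scd1, of Scd1 and Acly, and of Acly and Fasn, and the other neighbours did not. In KO the order was the same except that Acly (42.8 ± 7.50) stood above Scd1 (28.9 ± 8.74), with overlapping ranges. In KO the ranges of all neighbours overlapped except those of Thrsp and Acly and of Acaca and Elovl6, so that Me1 (598 to 1415) overlapped with Acacb (348 to 620), and Acacb with Srebf1 (194 to 354). In both groups the range of Fasn lay below those of Me1 and Acacb. Exons of several genes are long and variable between isoforms, and which isoforms muscle uses was not measured.

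Thrsp and Acacb ran in opposite directions from library to library. After the group means were taken from each value, their correlation over the 12 libraries was r = -0.91 (permutation p = 0.00035) and rho = -0.90 (permutation p = 0.00044). Adjusted over the 45 pairs of the 10 genes, these p-values were 0.0157 and 0.0198, the only pair to pass. Within WT r was -0.81 and within KO it was -0.96 (n = 6 each). Without the 2 libraries farthest from the median of Acacb, r was -0.87. KO 1, KO 3 and KO 6 had low Acacb with high Thrsp, and WT 3 had the highest Acacb with the lowest Thrsp. Both values come from the same libraries and share their scaling. Within KO alone, other pairs were about as strong, such as Acacb and Me1 (r = 0.97) and Me1 and Thrsp (r = -0.93). Within WT these pairs had r = -0.39 and r = 0.54. The pair with the next smallest Pearson p, Scd2 and Acaca, had r = 0.76 (permutation p = 0.00497, adjusted p = 0.112) and rho = 0.65 (permutation p = 0.0396, adjusted p = 0.283).

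**Figure D5:**
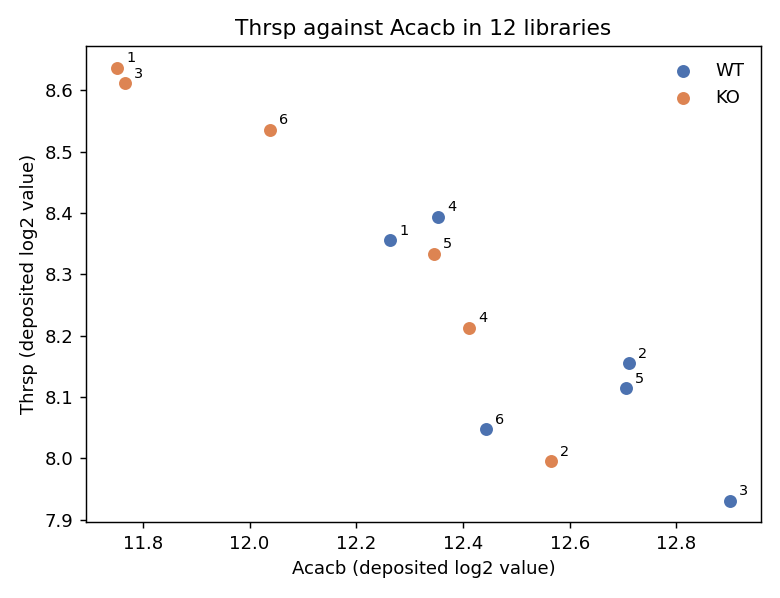
Deposited log2 value of Thrsp (y axis) against Acacb (x axis) in 6 WT (blue) and 6 KO (orange) libraries, with replicate numbers. KO 1, with 11.75 for Acacb and 8.64 for Thrsp, and WT 3, with 12.90 and 7.93, mark the ends.

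The 3 tested genes outside the set most like Scd1, by Pearson r across the 12 libraries after the group means were removed, were Slc6a6, the taurine transporter gene (r = 0.84), Tmem176a (r = 0.83) and Spry2, a gene of a receptor tyrosine kinase inhibitor (r = 0.83). They are the highest among all tested genes compared with Scd1, so their size reflects that choice. None was called between KO and WT, with changes of -0.04 (limma adjusted p = 0.817), 0.35 (limma adjusted p = 0.057) and 0.12 (limma adjusted p = 0.421).

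Promoter sequence was available from RefSeq (GRCm38.p6) for 8 of the 10 genes, all but Scd1 and Scd2, as 11 windows of 250 bases before to 50 bases after a start. No window held TCACNCCAC, a sterol regulatory element type sequence, or the E-box CACGTG on either strand, which 1.24% and 7.15% of all 32851 tabulated windows held. The NF-Y box CCAAT occurred in 7 of the 11 windows, against 37.4% of all, and the Sp1 box GGGCGG in 4 of 11, against 35.7%. Fasn and Thrsp are shown because each has more than 1 CCAAT box close to the start while their estimates in KO had opposite signs. The 100 bases before each RefSeq start are printed with CCAAT boxes of either strand in capitals, at chr11:120824548-120824647 for Fasn and chr7:97417551-97417650 for Thrsp, both on the minus strand. The starts are those of the RefSeq table: for Fasn the window lies just outside the GENCODE span given above, and for Thrsp it lies inside that span, which reaches further upstream.
Fasn: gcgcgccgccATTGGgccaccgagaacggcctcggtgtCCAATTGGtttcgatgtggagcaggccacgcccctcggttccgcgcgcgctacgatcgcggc
Thrsp: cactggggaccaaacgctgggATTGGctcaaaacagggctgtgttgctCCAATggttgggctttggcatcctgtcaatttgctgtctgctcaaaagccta
The Fasn window held 3 boxes, of which 2 on opposite strands overlap, and the Thrsp window held 2. A match describes these letters and is not a measured binding site.

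Genes that work with the lipogenic enzymes were mostly not called. None of 19 tested partners of fatty acid synthesis (23 listed) passed limma or limma-voom, with a median change of -0.04. Of the 19, 2 had an unadjusted limma p at or under 0.05, beside 26% of all tested genes in either direction. The tested partners include the citrate carrier gene Slc25a1 (0.004, limma adjusted p = 0.985) and Mid1ip1, the gene of a partner of Spot 14 and of the carboxylases (0.19, limma adjusted p = 0.199), both named after their values were seen. The smallest p belonged to Mcat, of the mitochondrial fatty acid synthesis pathway (0.19, limma adjusted p = 0.103). Scd3 and Scd4, the other mouse stearoyl-CoA desaturase genes, had at most 2.99 and 5.97 estimated reads in any library.

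None of 20 regulators of lipogenic transcription passed limma or limma-voom, with a median change of -0.09. Of the 20, 6 had an unadjusted limma p at or under 0.05. All of these were lower in KO, beside 14.1% of all tested genes lower at that level. The smallest p was that of Mlxip, the gene of MondoA, a glucose-responsive transcription factor of muscle (-0.55, limma adjusted p = 0.07). Mlxip passed without KO 5 (-0.65, limma adjusted p = 0.03), and without KO 2 the retinoid X receptor genes Rxra (-0.37, limma adjusted p = 0.0382) and Rxrg (-0.33, limma adjusted p = 0.0395) passed instead. No other single omission made Mlxip pass (limma adjusted p up to 0.16). The SREBP pathway genes Scap, Insig1, Insig2 and Srebf2 gave changes between -0.07 and 0.07, and none had an unadjusted p at or under 0.05. Mbtps1 and Mbtps2, of the same pathway, gave -0.18 (limma adjusted p = 0.107) and -0.15 (limma adjusted p = 0.242). The unadjusted limma p of Mbtps1 was 0.0151. These SREBP pathway genes were named after their values were seen. In malonyl-CoA turnover and AMPK, none of 12 genes passed limma or limma-voom, with a median change of -0.16. Of the 12, 4 had an unadjusted limma p at or under 0.05, all lower in KO, beside 14.1% of all tested genes. Cpt1b, the muscle carnitine palmitoyltransferase that malonyl-CoA inhibits, gave -0.25 (limma adjusted p = 0.0614) and passed without WT 4, KO 2 or KO 4 (limma adjusted p as low as 0.0279). No other single omission made Cpt1b pass (limma adjusted p up to 0.142).

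Among cholesterol synthesis and uptake genes, 3 of 22 rose, beside 3.1% of all tested genes, and 1 fell, beside 3.06%. The median change was -0.02, and 7 of 22 had an unadjusted limma p at or under 0.05, beside 26% of all tested genes. Pmvk, the phosphomevalonate kinase gene, rose by 0.37 (SE 0.09, limma adjusted p = 0.0243). The sterol reductase genes Tm7sf2 and Dhcr7 rose by 0.33 (limma adjusted p = 0.0319) and 0.32 (limma adjusted p = 0.0376). Hsd17b7, of sterol demethylation, fell by 0.42 (limma adjusted p = 0.0419). Hence the called genes of this pathway moved in both directions. The number called was 0 without WT 3, WT 5, KO 3 or KO 6, 1 without WT 6 or KO 1, and 2 without WT 2.

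In triglyceride synthesis and storage, 2 of 19 tested genes rose, beside 3.1% of all tested genes, and none fell, beside 3.06%, with a median change of 0.01. An unadjusted limma p at or under 0.05 was found for 8 of 19, beside 26% of all tested genes. Among these, Dgat2, which encodes an enzyme of the last step of triglyceride synthesis, and Fitm2, a lipid droplet gene, had negative estimates of -0.83 (limma adjusted p = 0.169) and -0.37 (limma adjusted p = 0.116). Positive estimates that did not pass were those of Plin2 (0.22, limma adjusted p = 0.0548) and Lpin3 (0.26, limma adjusted p = 0.0641). The same held for Fitm1 (0.23, limma adjusted p = 0.128) and Bscl2 (0.19, limma adjusted p = 0.157). Plin3, a lipid droplet coat gene, rose by 0.58 (SE 0.15, limma adjusted p = 0.0376), with deposited values of 8.08 to 9.06 for WT and 9.01 to 9.42 for KO. Lpin2, a phosphatidate phosphatase gene, rose by 0.40 (SE 0.11, limma adjusted p = 0.0376). The number called was 0 without WT 1, WT 2, KO 1, KO 3 or KO 6, 1 without WT 3, WT 5 or WT 6, and 4 without KO 5.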

How the data were processed

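Poly-A RNA of 12 mice, 6 WT and 6 KO, was sequenced, and the labels' protocols describe no step that marks strand. The authors deposited 1 log2 value per gene and library; tools named in the submitters' processing notes are STAR, fastp and featureCounts, with build mm10, while the sources used here do not give the transformation, the annotation or the normalization. The members and gene lists were chosen with earlier results of these data known.

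All columns share 1 lowest value, the shape of a variance-stabilizing transformation, whose closed form was inverted to scaled reads; the smallest step of each library was taken as 1 estimated read (90.4% to 94.4% of low values within 0.1 of a whole number). These were used for the filter, levels and ratios. Genes with at least 10 estimated reads in 6 libraries (12216) entered a limma fit (version 3.58.1 in R 4.3.3) of the deposited values on group, with a variance trend and robust moderation. GENCODE M21 gave positions, exon lengths and coding sequences. P-values are two-sided, Benjamini-Hochberg adjusted over all tested genes, threshold 0.05. Single values were compared over all 924 assignments of libraries; correlations used 100000 permutations within groups. On simulated data of the 12216 genes, 6 against 6, the fit recovered 80% of 100 genes changed by 0.5 and 97% of 100 changed by 1 (log2), with 9 false calls. The simulated noise was independent between genes, and the changed genes were drawn from all tested genes. These figures thus do not give the power for the 10 members, nor the false calls where genes vary together between libraries. Named genes were the 10 members, Ank2, the called genes of each pathway list or else the one with the smallest p, the 3 genes most correlated with a called member and the most abundant markers. Other genes (the adipocyte markers other than Plin4 and Fabp4, Flt1, Scd3, Scd4, Rxra, Rxrg, Slc25a1, Mid1ip1, Scap, Insig1, Insig2, Srebf2, Dgat2 and Fitm2) were named after their values were seen. So were Mbtps1, Mbtps2, Plin2, Lpin3, Fitm1 and Bscl2. Alternatives covered the test, voom, pseudocounts of 1 and 0.1, the filter (none, 50 reads), scaling, a replicate block and each library left out. Reads of overlapping genes cannot be separated without strand; of the 10, Scd1, Fasn and Thrsp overlap no other annotated gene. Precision rests on 6 mice per group. Estimated reads carry counting error and the error of the inferred inversion and step.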

Additional observations from a re-analysis of the deposited data

How the results depend on the processing

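Scd1 kept its direction in all 21 alternatives. Its change was -0.81 to -0.60 on the deposited scale, and -0.97 to -0.94 with voom or pseudocounts, which use other log2 scales. The Scd1 call held in 13, the exceptions being the 8 single-library omissions named with its values. The number of called lipogenic genes ran from 0 to 3 over single-library omissions, and that of all tested genes from 194 to 1515 against 753. Over the same omissions, the numbers called ran from 0 to 2 for regulators of lipogenic transcription, from 0 to 4 for cholesterol synthesis, from 0 to 4 for triglyceride synthesis and from 0 to 1 for malonyl-CoA turnover. Labels give both groups replicate numbers 1 to 6, but deviations of same-numbered libraries correlated from -0.36 to 0.29, so the numbers were not taken as pairs. With the replicate block, 2 lipogenic genes were called, Scd1 (limma adjusted p = 0.0188) and Me1 (0.0359), and 1 regulator, Mlxip (also by limma); the Scd1 to Scd2 difference had an exact p of 0.0312. With quantile normalization, the estimates turned positive for Srebf1 (0.0542) and Acly (0.00073); over single-library omissions they ran from -0.103 to 0.0604 and from -0.0625 to 0.0297. The cause was not tested. Elovl6 could not be tested with the 50-read filter. Depth limits Elovl6 and the adipocyte transcripts, which rest on few reads.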
